A study of Mus musculus with 35 samples.

Results

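After 8 weeks of diabetes the retina of wild-type mice carried more messenger RNA of inflammatory, interferon-induced and reactive glial genes than non-diabetic retina, and less of lens, hemoglobin and some activity-dependent genes. The comparison sets 5 retinas of mice diabetic for 8 weeks (D8), whose treatment label adds PBS (phosphate-buffered saline, the usual vehicle), against 6 retinas of non-diabetic mice (ND), whose label names no PBS. These are 11 of the 35 samples of the series, and every gene of the authors' deposited table of this comparison was taken, 25655 in all. Both groups carry the wild-type genotype, which the series text gives as wild type for CX3CR1. The labels give neither the way diabetes was induced nor the age or sex of the mice. Whether the samples of a group came from separate mice is not stated, so p-values measure the spread between samples, which may be technical. The series followed diabetic retina before, during and after removal of microglia, and neither group of this comparison had that treatment. The depleting agent, met below only in another group, is named PLX-5622 in the series text, while the sample labels write DTx.

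Diabetic retinopathy is a disease of the retina as a neurovascular tissue. High glucose acts on capillary endothelium, on Muller glia (the radial glia that span the retina), on the neurons they support and on microglia, the resident macrophages. Stressed Muller glia and microglia release chemokines and cytokines, which raise adhesion molecules on vessels and switch on acute-phase, complement and antigen presentation genes through transcription factors such as NF-kB and STAT3.

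For each gene the table holds a log2 fold change of D8 over ND, a p-value, an adjusted p (the authors' FDR p-value) and a single group mean, that of whichever group was higher, in a unit that is not stated; it holds no value per retina. An adjusted p was given for 17495 genes, which count as tested. A gene is called higher or lower where it is under 0.05. The standard error in brackets after a log2 value is the one implied by that value and its p. Other comparisons of the series reuse the ND or the D8 retinas, so the means listed there bound the smaller mean here, and a mean given as "at most" a value is such a bound. In these bulk samples fewer cells of a type and less RNA per cell cannot be told apart.

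Of the tested genes 509 passed (2.91%), of which 407 were higher in D8 (2.33%) and 102 lower (0.583%). The median log2 of all tested genes was 0.00. The calls higher in D8 had a median log2 of 1.48, and those lower one of -1.09. At least a doubling was seen in 285 of the genes that rose, and a fall to 50% or less in 53 of those that fell. Larger group means lay at or above the 40th percentile of tested genes (2.17) for 214 of the genes that rose and 77 of those that fell. The implied standard error had a median of 0.122 above that level and of 0.407 below it, so small changes could be called mainly in genes of higher level. At the threshold Olfm2, at log2 0.38 and an adjusted p of 0.0499677 in the authors' deposited table, was the last gene inside. Hif3a, at log2 0.69 and an adjusted p of 0.0503237 in the same table, was the nearest gene outside.

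**Figure D1:**
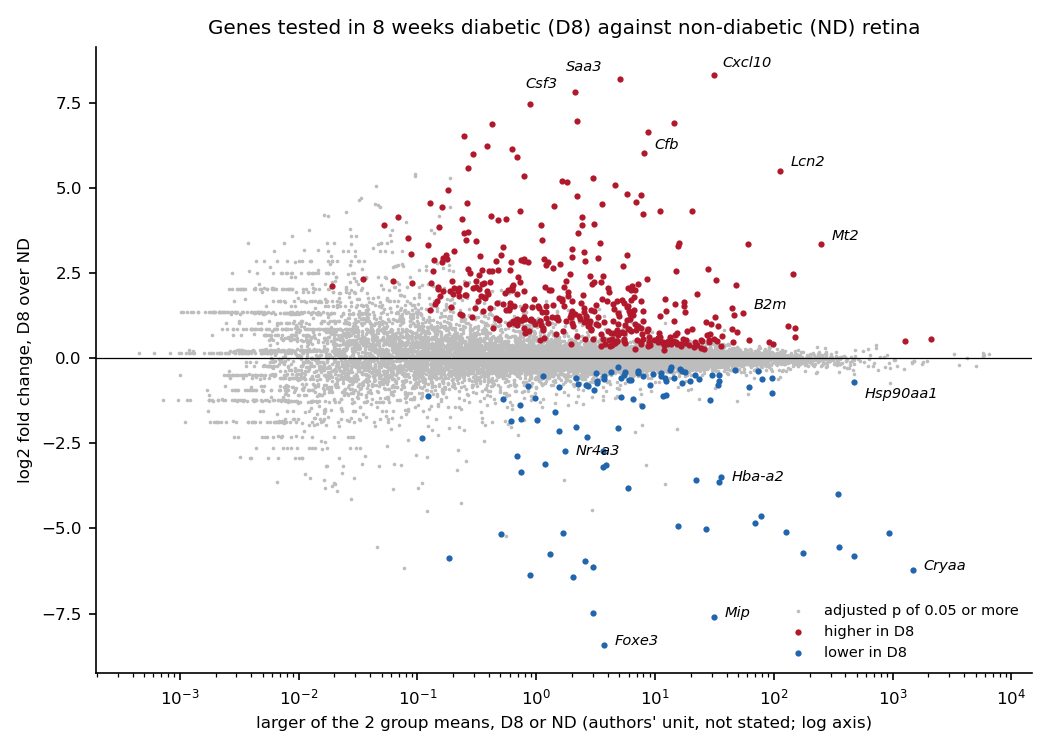
Each point is 1 of the 17495 tested genes, with the larger of the D8 and ND group means on a log axis (the authors' unit) and the log2 fold change of D8 over ND. The 407 red points (higher in D8) reach log2 8.30 at Cxcl10, the 102 blue points (lower in D8) reach -8.42 at Foxe3, and grey points did not pass an adjusted p of 0.05.

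The tissue was checked against markers of retina, which cannot check the labels of diabetes, weeks or PBS. In the authors' deposited table the rod transducin gene Gnat1 averaged at most 3231 in D8 and 3630 in ND retina. The cone arrestin gene Arr3, the ganglion cell gene Rbpms, the Muller glial gene Rlbp1, the amacrine gene Gad1 and the microglial receptor Cx3cr1 were also measured in both groups. Tissue that is no part of the neural retina differed between the groups: 16 of 32 tested lens genes and 4 of 10 blood genes were lower in D8, as described further on. The numbers in the sample titles run together within a group, as 2974 to 2978 for D8 and as 3006 to 3010 and 3016 for ND. Diabetes, PBS and whatever those numbers stand for cannot be told apart in this comparison.

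Of 273 tested genes in the 11 lists for inflammation, interferon, antigen presentation, vessel adhesion and gliosis, 127 were higher in D8 and 2 were lower. In the lists for ganglion cells, rods, cones, bipolar cells, amacrine and horizontal cells and synapses, 6 of 166 tested genes were higher and 0 lower, and 155 had an absolute log2 under 0.5. Across all tested genes 2.33% were higher and 0.583% lower. The lists were chosen with earlier results of these data known, so the counts describe them and do not test them.

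**Figure D2:**
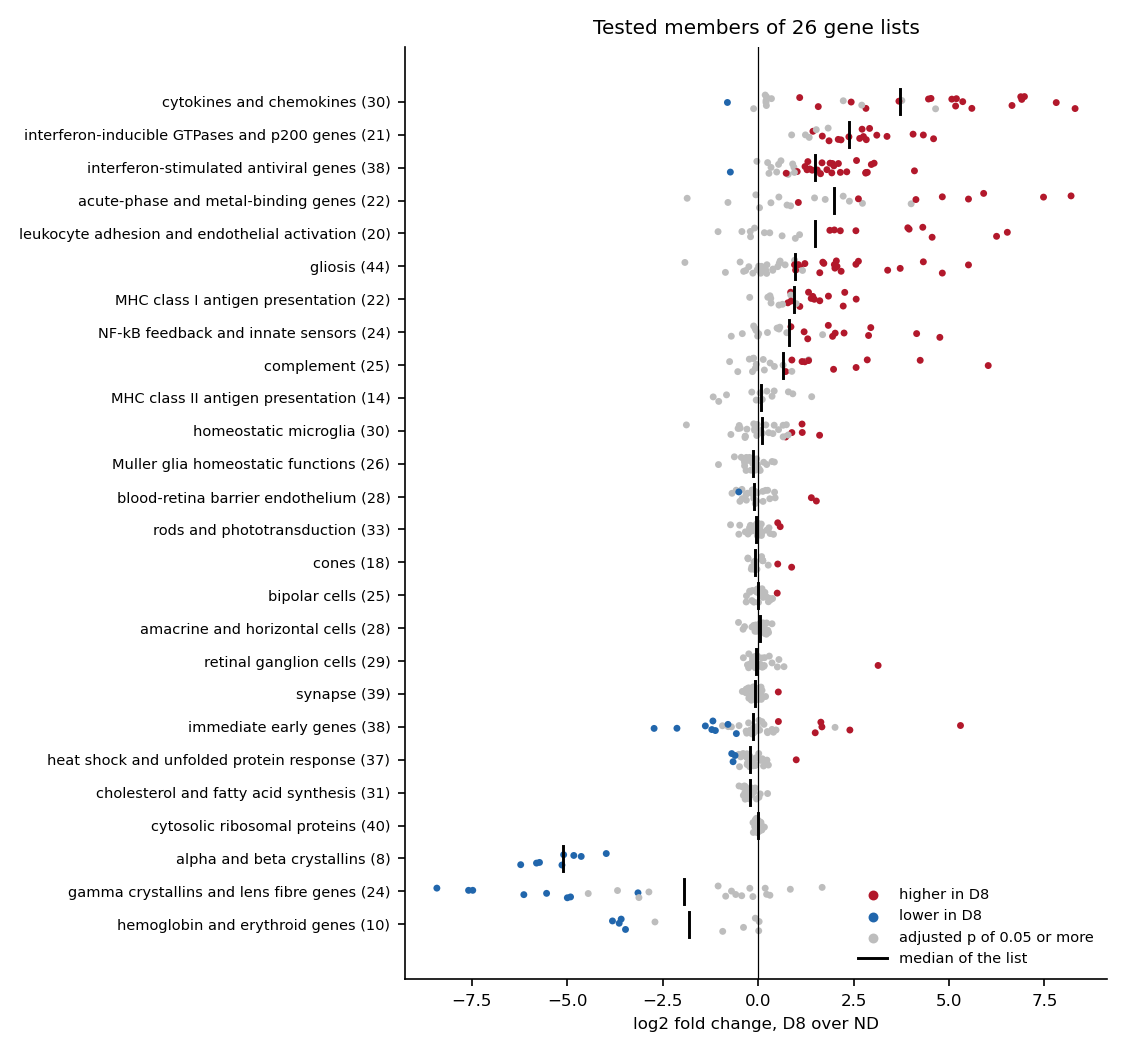
Log2 fold change of D8 over ND for each tested member of 26 gene lists, with the number of tested members in brackets and the list median as a black bar. Medians run from 3.73 for cytokines and chemokines to -5.12 for the alpha and beta crystallins, and those of retinal neurons from -0.08 for cones to 0.05 for amacrine and horizontal cells.

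Chemokines, the secreted proteins that draw leukocytes, and cytokines held many of the largest increases. The list of cytokines and chemokines had 18 of 30 tested members higher and 1 lower, with a median log2 of 3.73. Cxcl10, an interferon-induced ligand of the receptor CXCR3 (chr5:92494497-92496748, GRCm39, minus strand), averaged 31.3 in D8 retina and at most 0.129 in ND retina in the authors' deposited table, a log2 of 8.30 (0.95). Ccl2, which draws monocytes through CCR2, averaged 14.3 in D8 and at most 0.114 in ND in that table, with log2 6.91 (0.93). The neutrophil chemokine Cxcl1 averaged 8.79 in D8 and at most 0.0822 in ND, with log2 6.65 (0.91) in the authors' deposited table. These genes were close to absent from ND retina, so each fold rests on a very small control level. Ccl2, Ccl7 (log2 6.97) and Ccl12 (4.53) lie side by side on chromosome 11, and Ccl3 (5.17), Ccl4 (4.46) and Ccl5 (3.69) lie farther along it, all 6 called higher in the authors' deposited table. Relatives within such clusters are similar in sequence, and how reads that match more than 1 of them were counted is not given in the sources used here.

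Among cytokines, the granulocyte growth factor Csf3 had log2 7.81 (1.23), Il6 had 6.88 (1.46), Tnf had 5.60 (1.27) and the IL-6 family member Lif, which protects photoreceptors and activates Muller glia, had 5.07 (0.78) in the authors' deposited table. Lif averaged 4.57 in D8 and at most 0.145 in ND in that table. The levels of Il6 and Tnf stayed low even in D8, at 0.42 and 0.265 in the authors' deposited table, and their errors are correspondingly large. Il1b had log2 2.82 (0.77) and the macrophage growth factor Csf1 1.57 (0.34). The fall was Cxcl12, the homeostatic ligand of CXCR4, which averaged at most 1.58 in D8 and 2.71 in ND with log2 -0.81 (0.21) in the authors' deposited table. Cxcl9 and Cxcl11, the other CXCR3 ligands, did not pass (log2 4.65 with an error of 1.80, and 2.71 with 0.93), nor did Osm, Il11, Il18, Il33 or the fractalkine gene Cx3cl1 (log2 -0.12), per the authors' deposited table.

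**Figure D3:**
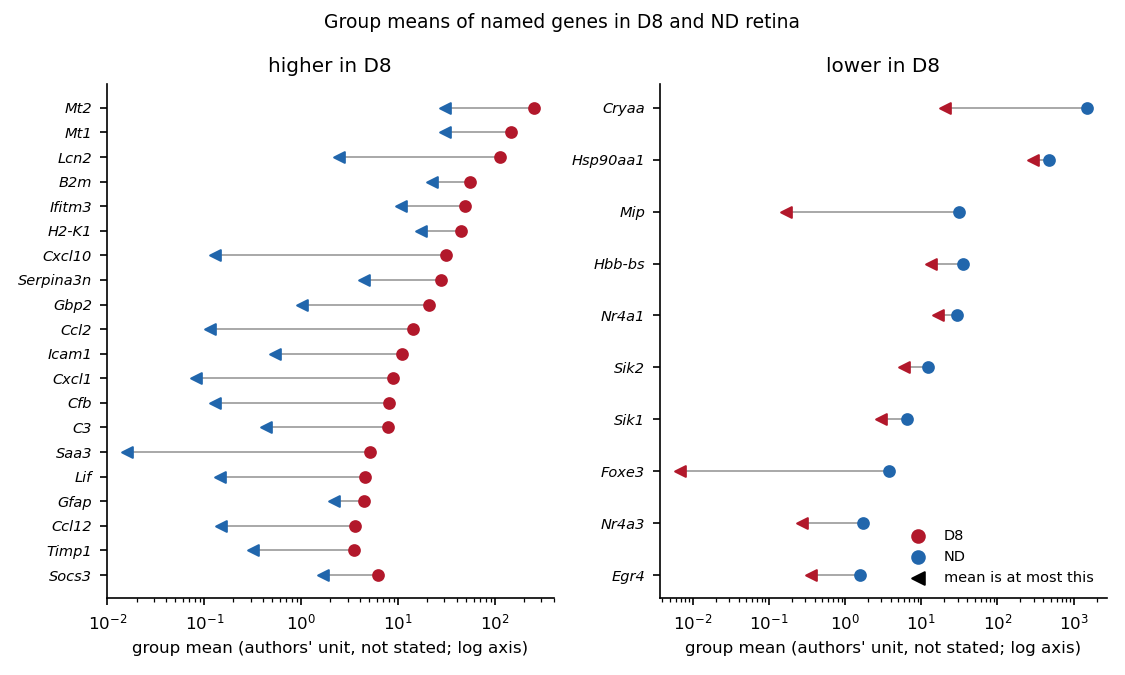
Group means on a log axis for 20 genes higher in D8 (left) and 10 lower in D8 (right), with D8 in red and ND in blue; a circle is a mean given by the authors' tables and a triangle a bound that the mean does not exceed. Cxcl10 lies at 31.3 in D8 and at most 0.129 in ND, while Cryaa lies at most 20.4 in D8 and at 1484 in ND.

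Of 24 tested genes for cytokine receptors and STAT3 signalling 6 were higher and 0 lower, with a median log2 of 0.45. Osmr, the receptor subunit for oncostatin M, had log2 2.06 (0.41) and the TNF receptor gene Tnfrsf1a had 1.15, while the shared subunit Il6st had 0.08, Lifr -0.09 and the IL-1 receptor gene Il1r1 0.27 in the authors' deposited table. Downstream, Socs3, the feedback inhibitor induced by STAT3, averaged 6.22 in D8 and at most 1.68 in ND, with log2 2.01 (0.39) in the authors' deposited table. Cebpd, a transcription factor of the acute-phase response, had 3.31 (0.47) and Bcl3, a nuclear partner of NF-kB, 3.20 (0.56) in that table. Stat3 itself did not pass, at log2 0.64 (0.23) with an adjusted p of 0.123 in the authors' deposited table.

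Of the NF-kB genes, many of which restrain the pathway, and innate sensors, 11 of 24 tested were higher and 0 lower, median log2 0.80. Nfkbia, which encodes the inhibitor IkB alpha, averaged 31.9 in D8 and at most 13.9 in ND with log2 1.20 (0.25) in the authors' deposited table. The subunits Nfkb2 and Relb of the non-canonical pathway had log2 2.25 and 1.95 in that table, while Nfkb1 had 0.49 and Rel -0.06, neither past the threshold. Tlr2, the receptor for bacterial lipoproteins, had log2 4.15 (0.76) and its partner Tlr1 2.89, whereas Tlr4 had -0.71 and did not pass in the authors' deposited table. The inflammatory caspase genes Casp4 (log2 2.95) and Casp1 (1.84) rose, and the inflammasome sensor Nlrp3 had 0.01 in the authors' deposited table. In the list for cell death 5 of 24 rose, Fas (log2 4.78), Casp4, Mlkl, the executor of necroptosis (2.52), Casp1 and Trp53 (0.49), while Bax, which permeabilises mitochondria, had 0.13 and did not pass in the authors' deposited table.

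Acute-phase proteins are secreted during systemic inflammation, mostly by liver, and several of their genes are also made by reactive glia. Of 22 tested members 8 were higher and 0 lower, median log2 1.99. Saa3, the serum amyloid A gene used outside the liver, averaged 5.09 in D8 and at most 0.0159 in ND, a log2 of 8.20 (0.85) in the authors' deposited table. Lcn2, which encodes the iron carrier lipocalin 2, averaged 113 in D8 and at most 2.43 in ND, log2 5.51 (0.58) in the same table. The metalloreductase gene Steap4 averaged 5.82 in D8 and at most 0.213 in ND, with log2 4.82 (0.69) in the authors' deposited table. Orm1 and Orm2, neighbours on chromosome 4 with similar sequences, had log2 5.91 (1.38) and 7.47 (1.90) in that table. Haptoglobin (Hp), at log2 1.76 and an adjusted p of 0.143, and Saa1 and Saa2 did not pass in the authors' deposited table.

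Complement, the cascade that tags debris and microbes, had 10 of 25 tested genes higher and 0 lower, median log2 0.65. Cfb, the protease subunit of the alternative pathway, averaged 8.06 in D8 and at most 0.129 in ND with log2 6.03 (0.70) in the authors' deposited table, and C3 averaged 7.93 in D8 and at most 0.431 in ND with 4.24 (0.63). C1ra (log2 2.86), C4b (1.32) and C1s1 (1.22) of the classical pathway also passed in that table. C1qa and C1qb, which retinal microglia supply, averaged 7.71 and 7.60 in D8 and 4.60 and 4.05 in ND, and had log2 0.72 (0.20) and 0.88 (0.20) in the authors' deposited table. The regulators Cd55 (log2 -0.12), Cd59a (0.13) and Serping1 (0.88, adjusted p of 0.0701) did not pass in the authors' deposited table. The receptors for the released fragments, C3ar1 (log2 1.97) and C5ar1 (2.56), passed at group means of 0.189 and 0.134 in D8 in that table.

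Interferons act through JAK kinases and STAT factors and switch on antiviral genes and large GTPases that attack vacuoles holding microbes. Of 38 tested antiviral genes 25 were higher in D8 and 1 was lower, median log2 1.48, and of 21 tested genes in the list of interferon-inducible GTPases 16 were higher and 0 lower, median 2.38. That list also holds 3 genes of p200 DNA sensors, which are no GTPases, and without them 15 of 18 were higher, median 2.69. The 18 GTPase values ran from 0.88 to 4.59. Of the p200 genes Ifi204 rose (log2 2.10), while Ifi203 (1.52) and Ifi207 (1.34) did not pass in the authors' deposited table. Gbp5 had log2 4.59 (0.66) and Gbp2 4.33 (0.63) in the authors' deposited table. Gbp2 (chr3:142326363-142343769, GRCm39, plus strand) averaged 20.7 in D8 retina and at most 1.01 in ND retina in that table. Many of these genes sit in clusters of close copies on chromosomes 3, 5 and 11, so the values of single members are uncertain.

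The promoters of the GTPases are shown because a short sequence recurs in many of them. Interferon regulatory factors recognise an element whose core is GAAA, any 2 bases and GAAA again. Promoters came from RefSeq (GRCm38.p6, an older build than the GRCm39 of the expression tables), as the 250 bases before the annotated start, and were read on both strands; the motifs were chosen after the expression values were seen. Of the 18 tested GTPase genes 10 had a promoter in the table and 9 of these held that core (90%), against 3.04% of all 27025 promoters in the table and 2.72% of the 13574 tested genes with a promoter. Among the antiviral genes it was in 12 of 28 (42.9%), among genes higher in D8 in 39 of 318 (12.3%) and among genes lower in D8 in 2 of 81 (2.47%). A second interferon-related motif, the gamma-activated site (TTC, any 3 bases and GAA), was in 6 of the 10 GTPase promoters (60%), against 7.18% of all promoters, 6.06% of those of tested genes, 12.3% of genes higher in D8 and 3.7% of genes lower. A match describes the letters and is not evidence of a factor bound there. The 9 windows below give the match nearest the start, in capitals, with 8 bases on each side, read along the motif.
Gbp2 (chr3:142620596-142620621, minus strand): aagacagtGAAAGTGAAActaaaaga
Gbp3 (chr3:142559997-142560022, minus strand): ggatctggGAAATAGAAActgaaact
Gbp5 (chr3:142496761-142496786, minus strand): tctaaactGAAATTGAAActacacaa
Gbp7 (chr3:142530275-142530300, minus strand): ggagaactGAAACTGAAActgcacac
Irgm1 (chr11:48871427-48871452, minus strand): aagaaataGAAACCGAAActgattct
Irgm2 (chr11:58214905-58214930, plus strand): caggaactGAAACTGAAAgctgttcg
Igtp (chr11:58199514-58199539, plus strand): taggaactGAAACTGAAAgctgttcg
Tgtp1 (chr11:48992306-48992331, minus strand): caggaatcGAAACTGAAAcctacctg
Tgtp2 (chr11:49064265-49064290, minus strand): caggaatcGAAACCGAAAcctactct
The windows of Irgm2 and Igtp, and those of Tgtp1 and Tgtp2, are nearly the same, and each pair lies on the same stretch of chromosome 11. Of the 9 genes, Gbp2, Gbp3, Gbp5, Gbp7, Irgm1, Irgm2, Igtp and Tgtp1 were called higher, while Tgtp2 (log2 1.24) did not pass in the authors' deposited table. Ifi47, which rose by log2 2.66 in that table, had no match of the core in its promoter.

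Among antiviral genes Mx1, which blocks viral ribonucleoproteins, had log2 4.09 (0.90), Ifit1 3.04 (0.56) and the ubiquitin-like modifier Isg15 2.32 (0.44) in the authors' deposited table. Ifitm3, a membrane protein that hinders viral fusion, averaged 48.5 in D8 and at most 10.7 in ND, with log2 2.15 (0.28) in that table. The regulator Irf1 rose by log2 1.80 (0.41) in the authors' deposited table. Irf7, the amplifier of the type I interferon response, went the other way, at log2 -0.73 (0.22), with at most 16.3 in D8 and 17.0 in ND in the authors' deposited table. Irf7 was also lower in ND repopulated retinas (5 non-diabetic retinas, 2 weeks of depletion and 2 weeks of recovery by label) than in the same ND retinas, at log2 -0.96, and had -0.12 at 6 weeks and -0.20 at 10 weeks of diabetes, neither past the threshold, in the authors' deposited tables.

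MHC class I genes, which present peptides of the cell's own proteins, were often higher, and no gene passed for MHC class II, used by professional antigen presenting cells. Of 22 tested class I pathway genes 13 were higher and 0 lower, median log2 0.93. Of 14 class II pathway genes 0 passed in either direction, median 0.08, near the share of all tested genes (2.91%). The light chain B2m averaged 54.9 in D8 and at most 22.1 in ND with log2 1.32 (0.20) in the authors' deposited table. The heavy chain gene H2-K1 averaged 44.8 in D8 and at most 17.3 in ND with 1.47 (0.21), and H2-Q4 14.95 in D8 and at most 2.48 in ND with 2.57 (0.35), in that table. The immunoproteasome gene Psmb8 (log2 1.61), the peptide transporter genes Tap1 (1.43) and Tap2 (1.09) and the class I transactivator Nlrc5 (2.27) also rose in the authors' deposited table. In class II, H2-Aa had log2 -0.83 (0.45), H2-Eb1 -1.03 (0.48) and the invariant chain Cd74 0.05 (0.42), with larger group means of 0.908, 0.553 and 1.95 in the authors' deposited table. Class I heavy chain genes are near-identical in places, so their single values are uncertain.

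The promoters of Cxcl10 and B2m are printed because both hold the interferon-type core as well as NF-kB consensus matches. The NF-kB consensus was in 3.75% of all promoters in the RefSeq table and 4.53% of those of tested genes, in 12.9% of those of genes higher in D8 (41 of 318), in 28.6% of the cytokine list (6 of 21) and in 44.4% of the class I list (8 of 18). The interferon-type core was in 1 of 21 promoters of the cytokine list (4.76%) and 3 of 18 of the class I list (16.7%). Capitals mark the core of GAAA, any 2 bases and GAAA, or the NF-kB consensus, in the 250 bases before the start, 5′ to 3′ on the gene's strand.
Cxcl10 (chr5:92348890-92349139, GRCm38.p6, minus strand): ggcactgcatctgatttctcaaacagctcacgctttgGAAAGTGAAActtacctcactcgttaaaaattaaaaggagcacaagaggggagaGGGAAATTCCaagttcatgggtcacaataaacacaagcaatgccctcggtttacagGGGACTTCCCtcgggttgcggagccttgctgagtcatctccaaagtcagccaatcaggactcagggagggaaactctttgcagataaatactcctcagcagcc
B2m (chr2:122147437-122147686, GRCm38.p6, plus strand): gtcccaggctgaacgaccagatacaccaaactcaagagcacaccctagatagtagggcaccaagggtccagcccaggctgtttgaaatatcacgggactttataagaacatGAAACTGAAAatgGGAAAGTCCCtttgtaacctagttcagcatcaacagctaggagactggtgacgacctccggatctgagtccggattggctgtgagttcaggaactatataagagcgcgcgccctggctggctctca
In Cxcl10 the interferon-type core lies 213 to 204 bases before the start and the NF-kB matches lie at 159 to 150 and at 103 to 94. In B2m the core lies 139 to 130 bases before the start and the NF-kB match 126 to 117.

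Adhesion molecules, with which activated endothelium catches passing leukocytes, rose in 10 of 20 tested cases and fell in 0, median log2 1.48. Icam1 averaged 10.9 in D8 and at most 0.54 in ND with log2 4.31 (0.64) in the authors' deposited table. Vcam1 averaged 6.85 in D8 and at most 1.69 in ND with 2.00 (0.40) in that table. The selectins Selp (log2 6.24) and Sele (4.56), which act in rolling, and the lymphocyte address molecule Madcam1 (6.53, error 1.76) passed at levels of 0.387, 0.261 and 0.247 in D8 in the authors' deposited table. Ch25h, the enzyme for 25-hydroxycholesterol, had log2 3.95 (0.53), and Lrg1, a glycoprotein that promotes vessel growth, 3.92 (0.62) in the authors' deposited table. On the leukocyte side of these pairs the integrins Itgal (log2 1.08) and Itgb2 (0.97) did not pass in the authors' deposited table. Nor did the selectin ligand Selplg (-0.10). In that table the integrin gene Itgam, listed below with microglia, passed with a rise of log2 1.15.

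Markers of leukocytes from blood had low group means. Of 38 listed, 28 were tested, 1 was higher (3.57%) and 0 were lower, near the 2.91% of all tested genes. Of those listed, 4 had a group mean of 0. The summed means came to at most 14.7 in D8 and 10.6 in ND, the median larger mean was 0.0423 and the highest was 4.06, of Mmp9. The called gene was Ngp, a neutrophil granule gene, at 0.246 in D8 and at most 0.0162 in ND with log2 3.67 (0.96) in the authors' deposited table. The neutrophil genes S100a8 (log2 1.04) and Ly6g (1.02), the monocyte receptor Ccr2 (-0.81) and the T cell genes Cd3d (-0.49) and Cd4 (-1.19) did not pass in the authors' deposited table. The median log2 of the tested markers was 0.30. Of the markers that did not pass, Chil3 (log2 2.06, error 0.78), Camp (2.76, error 1.33) and S100a9 (1.46, error 0.70) had the smaller p-values, with 0.168, 0.0746 and 3.35 in D8 and at most 0.0373, 0.00604 and 1.19 in ND in the authors' deposited table. The part of leukocytes in the inflammatory genes was not tested.

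Gliosis genes, which reactive Muller glia and astrocytes switch on, were higher in 20 of 44 tested cases and lower in 0, median log2 0.95. Gfap, the intermediate filament of activated glia, averaged 4.42 in D8 and at most 2.19 in ND with log2 1.10 (0.28) in the authors' deposited table. The protease inhibitor genes Serpina3n and Timp1 had log2 2.63 (0.51) and 3.39 (0.54) in that table. Edn2, the endothelin gene that stressed photoreceptors use to signal to Muller glia, averaged 5.89 in D8 and at most 1.55 in ND, log2 2.05 (0.38) in the authors' deposited table. Tgm2 (log2 1.72), Ptx3 (2.17), Ptgs2 (2.56) and the transporter gene Slc10a6 (3.72) also passed there. The other intermediate filament gene of Muller glia, Vim, averaged at most 67.4 in D8 and 72.7 in ND with log2 -0.14 (0.28), and the neurotrophic factor Fgf2 had 0.55 (0.24), neither past the threshold in the authors' deposited table.

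The supporting functions of Muller glia showed no called gene among 26 tested, near the share of all tested genes (2.91%). Their median log2 was -0.13, and 20 of the 26 values lay below 0 against 49.5% of all tested genes. Glutamine synthetase (Glul) had log2 -0.22 (0.15), the glutamate transporter Slc1a3 -0.31 (0.16), the potassium channel Kcnj10 -0.36 (0.14), the water channel Aqp4 -0.32 (0.12) and the retinoid carrier Rlbp1 -0.62 (0.24) in the authors' deposited table. Their adjusted p lay between 0.147 and 0.645, and intervals of about this width leave a modest decrease undecided. Of 12 markers of astrocytes Gfap was higher and Fgfr3 lower. Fgfr3 averaged at most 0.28 in D8 and 1.19 in ND, with log2 -3.11 (0.90), and had 0.13 at 6 weeks and -1.01 at 10 weeks of diabetes, neither past the threshold, in the authors' deposited tables.

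Most genes of microglial identity did not pass, but the share called was above that of all tested genes. Of 30 tested homeostatic genes 5 were higher (16.7%) and 0 lower, median log2 0.09. Of all tested genes 2.33% were higher and 0.583% lower. The fractalkine receptor Cx3cr1 averaged 0.761 in D8 and 0.713 in ND with log2 0.07 (0.31) in the authors' deposited table. P2ry12 had log2 -0.34 (0.35), Tmem119 -0.12 (0.33) and Csf1r -0.04 (0.22), none past the threshold in that table. The 5 that rose were C1qa, C1qb, the Fc receptor chain Fcer1g (log2 1.15), the complement receptor subunit Itgam (1.15) and the lineage factor Spi1 (1.61, with 0.472 in D8 and at most 0.153 in ND) in the authors' deposited table. Of 29 genes of disease-associated microglia 4 rose (13.8%) and 0 fell, median log2 -0.01. They were Ch25h, Csf1, the oxidase subunit Cybb (2.05) and Cd52 (1.21) in the authors' deposited table. Trem2 (-0.34), Apoe (-0.07), Spp1 (-0.01), Gpnmb (-0.01) and Lpl (-0.09) did not pass in that table.

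The deposited comparison of D8 retinas in which microglia had been depleted for 2 weeks (4 retinas) with the same D8 retinas gives the same genes after removal of microglia. It shares the D8 retinas with the comparison above, so values are set side by side and no overlap is read from them. In the depleted retinas C1qa was lower by log2 -6.92, Cx3cr1 by -6.98 and Ccl12 by -7.35 than in D8 in the authors' deposited table. Ccl3 (-4.21), Ccl4 (-3.52), Ccl7 (-3.14), Lif (-3.66), C3ar1 (-4.54) and C5ar1 (-3.31) were also called lower under depletion in that table. Cxcl10 (-1.62, adjusted p of 0.335), Ccl2 (-1.09), Cxcl1 (-0.72), Il6 (-0.86), Saa3 (-0.75), Cfb (0.29), C3 (-0.49), Gbp2 (-0.80), B2m (0.03) and Lcn2 (1.30) were not called in the depleted retinas in the authors' deposited table. Of the whole cytokine list 7 of 30 tested genes were lower and 1 was higher under depletion, against 4.9% and 5.85% of all genes tested there. Of the 18 GTPases 0 were lower and 3 higher, and of the class I list 2 of 22 were lower and 0 higher.

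Most vascular and matrix genes outside the adhesion group did not pass, but the shares called were above the 2.91% of all tested genes. They were 12.5% for the VEGF and angiopoietin system and 10.7% for barrier endothelium. For pericytes and mural cells the share was 5%, and for extracellular matrix 7.14%. Vegfa, the growth factor behind retinal vessel leakage, averaged at most 46.0 in D8 and 50.8 in ND, with log2 -0.17 (0.14) and an adjusted p of 0.745 in the authors' deposited table. Of 24 genes of the VEGF and angiopoietin system, the placental growth factor Pgf (log2 2.26, with 1.79 in D8 and at most 0.365 in ND) and Angptl4 (1.88) rose and the tip cell ligand Apln fell (-1.20, with at most 0.231 in D8 and 0.522 in ND) in the authors' deposited table. The receptor Kdr had -0.42 (0.15) and did not pass. Of 28 genes of the barrier endothelium the surface antigens Ly6a (log2 1.52) and Ly6c1 (1.39) rose and the Norrin co-receptor Lrp5 fell (-0.51), while the tight junction genes Cldn5 (0.25, error 0.35) and Ocln (-0.16) did not pass in the authors' deposited table. Mcam (1.01) was the called gene among 20 of pericytes and mural cells, and Pdgfrb had -0.26 in that table. Among 42 genes of the extracellular matrix Timp1, Col9a1 (0.68) and Col15a1 (0.58) rose, and the basement membrane genes Col4a1 (-0.90) and Fn1 (-0.18) did not pass in the authors' deposited table.

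Most neuronal genes did not pass, as was so for all tested genes, of which 2.91% were called. The share called was 6.06% for rods, 11.1% for cones, 4% for bipolar cells and 3.45% for ganglion cells. It was 2.56% for synapses and 0% for amacrine and horizontal cells. Gnat1 had log2 -0.20 (0.17), with an adjusted p of 0.774 in the authors' deposited table. Of 33 genes of rods and phototransduction the rod arrestin Sag (log2 0.58, error 0.15) and the guanylate cyclase activator Guca1a (0.51) rose, and the median was -0.07. Among 18 cone genes Arr3 rose, averaging 152 in D8 and 81.1 in ND with log2 0.88 (0.21), alongside Guca1a, while the cone opsins Opn1sw (-0.18) and Opn1mw (0.26) and the transducin Gnat2 (0.12) did not pass in the authors' deposited table. Car8 (log2 0.50) was the called bipolar gene of 25, and 0 of 28 amacrine and horizontal genes passed. Among ganglion cell genes Rbpms was at 0.15 (0.12), Nefl at -0.15 (0.15) and Slc17a6 at -0.25 (0.12) in the authors' deposited table. The called gene of 29 was Sprr1a, a gene of injured axons, at 0.204 in D8 and at most 0.0197 in ND with log2 3.14 (0.96), whereas Atf3 had 0.36 and did not pass in that table. Of 39 synaptic genes the active zone gene Rims2 rose (0.53), and 38 had an absolute log2 under 0.5.

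Immediate early genes, which neurons switch on within minutes of activity, moved in opposite directions: 6 of 38 tested were higher and 8 lower, median log2 -0.13. The orphan receptor genes Nr4a3 (chr4:48045153-48086447, GRCm39, plus strand), Nr4a1 and Nr4a2 were lower. Nr4a3 averaged at most 0.268 in D8 and 1.74 in ND with log2 -2.73 (0.31) in the authors' deposited table. Nr4a1 averaged at most 16.6 in D8 and 29.2 in ND with -1.22 (0.25), and Nr4a2 at most 1.55 in D8 and 2.62 in ND with -0.79 (0.16), in that table. Egr4 (log2 -2.13), Egr3 (-1.38), the kinase Sik1 (-1.19), Ccn2 (-1.12) and Dusp1 (-0.57) fell as well in the authors' deposited table. The kinase Sik2, a relative of Sik1 outside the list, had the smallest p among genes lower in D8 after Nr4a3, with at most 6.02 in D8 and 12.4 in ND and log2 -1.07 (0.13) in the authors' deposited table. Those that rose were Fosl1 (5.30, with 3.00 in D8 and at most 0.151 in ND), Maff (2.40), Zfp36 (1.67), Gadd45b (1.64), Ccn1 (1.49) and Ier3 (0.53), several of which NF-kB also induces. Fos (log2 -0.19), Fosb (-0.21), Egr1 (-0.94, error 0.41), Arc (-0.70) and Npas4 (-0.50) did not pass in the authors' deposited table.

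The same ND retinas serve the comparison with ND repopulated retinas, which had no diabetes, and 7 of the 38 immediate early genes were lower there and 0 higher, against 0.0714% and 0.0844% of all genes tested. There Nr4a3 had log2 -1.60, Nr4a1 -1.44, Egr4 -2.31, Sik1 -1.06, Dusp1 -0.76, Fos -1.61 and Egr1 -2.61, each called lower in the authors' deposited table. Sik2 was lower there as well, at log2 -0.82. So some of these genes were lower than in the ND retinas in a group without diabetes, and the level of the ND retinas stands in every such value. Clock genes had 0 of 20 called in D8, near the share of all tested genes (2.91%). Per1 had log2 -0.25, Per2 0.00 and Dbp 0.02 in the authors' deposited table. The light-dependent gene Drd4, in no list, was lower (-1.03) in that table.

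The promoters of Nr4a1 and Nr4a3 are shown for TGACG, the short form of the element through which the kinase PKA and the factor CREB act on activity genes. TGACG was in 17 of 30 promoters of the immediate early list (56.7%) and in 10 of 18 of the class I list (55.6%), whose called genes rose, against 17.9% of all promoters in the RefSeq table, 23.8% of those of tested genes, 28.4% of genes lower in D8 and 17.6% of genes higher. The full palindromic element was in 2 of the 30 immediate early promoters (6.67%), against 1.62% of all promoters and 2.39% of those of tested genes. Capitals mark TGACG on either strand.
Nr4a1 (chr15:101266596-101266845, GRCm38.p6, plus strand): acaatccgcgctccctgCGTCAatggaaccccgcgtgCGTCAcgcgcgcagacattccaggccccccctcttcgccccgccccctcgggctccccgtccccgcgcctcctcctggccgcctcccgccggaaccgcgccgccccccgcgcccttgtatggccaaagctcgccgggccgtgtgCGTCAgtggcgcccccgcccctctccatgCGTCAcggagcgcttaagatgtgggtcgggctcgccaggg
Nr4a3 (chr4:48045055-48045304, GRCm38.p6, plus strand): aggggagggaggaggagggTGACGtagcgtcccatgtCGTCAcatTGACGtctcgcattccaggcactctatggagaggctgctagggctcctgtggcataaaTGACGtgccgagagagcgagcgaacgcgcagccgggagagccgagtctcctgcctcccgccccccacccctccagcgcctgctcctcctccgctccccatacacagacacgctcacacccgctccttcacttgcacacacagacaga
Each of these windows holds 4 matches, which say nothing about a factor bound there.

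Metallothioneins, small proteins that bind zinc and copper and answer to metal, stress and glucocorticoid hormone, had 2 of 9 genes of their list higher and 0 lower, median log2 0.52. Mt2 averaged 249 in D8 and at most 30.5 in ND with log2 3.36 (0.47), and Mt1 averaged 146 in D8 and at most 30.5 in ND with 2.46 (0.40), in the authors' deposited table. The neuronal relative Mt3 had 0.52 (0.16) and an adjusted p of 0.0507, and the zinc exporter Slc30a1, another target of metal, had -0.08, in the authors' deposited table. Of 26 glucocorticoid targets 9 were higher and 1 lower, median log2 0.35. Fkbp5, which encodes a chaperone of the receptor, averaged 6.79 in D8 and at most 3.48 in ND with 1.00 (0.16), and the kinase Map3k6 had 2.73 (0.48), in the authors' deposited table. Cdkn1a, the cell cycle inhibitor, had 1.72 (0.46) there. Tsc22d3 (log2 0.14), Sgk1 (-0.20), Zbtb16 (0.09), Klf9 (0.09) and the receptor Nr3c1 (-0.18) did not pass, and Mt1, Mt2, Cebpd, Nfkbia and Cdkn1a are also induced by other pathways.

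Genes of metabolism showed few calls, apart from those for insulin signalling and fat and ketone use, described below. Of all tested genes 2.91% were called, so 0 calls in a list of this size is near that share. Txnip, which rises with glucose through the factors MLXIPL and MLXIP, had log2 0.43 (0.29) and did not pass at 8 weeks, with 3.15 in D8 and at most 2.3 in ND in the authors' deposited table. The arrestin-fold relative Arrdc2 was the called gene of 20 in that list, at 0.61. Glycolysis genes had 0 of 31 called, at a median of -0.14 with 24 values below 0, for example Pgk1 at -0.41, Eno1 at -0.36 and Ldha at -0.26, all from the authors' deposited table. Genes for making cholesterol and fatty acids had 0 of 31 called, with 28 of the 31 values below 0 and a median of -0.22; Hmgcs1 had -0.35 and Scd2 -0.41 in the authors' deposited table. The members share libraries and regulators and are not independent, and no single one passed. Oxidative phosphorylation had 0 of 37 called, with values between -0.15 and 0.16, and cytosolic ribosomal proteins had 0 of 40 called, with values between -0.14 and 0.16.

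Of 37 genes for insulin signalling and fat and ketone use 4 were higher and 2 lower (16.2%), against 2.91% of all tested genes. Igfbp3 (log2 1.68), Angptl4 and the medium chain dehydrogenase Acadm (0.77) were higher in the authors' deposited table. So was Cpt1a, the gate of mitochondrial fat uptake (0.47), in that table. Igfbp5, which binds insulin-like growth factors, was lower (-0.64), and Pdk4 had -0.27 and did not pass in that table. Of 37 heat shock genes 29 were below 0, with a median of -0.22, and 3 were called lower and 1 higher (10.8%). The cytosolic chaperone Hsp90aa1 averaged at most 297 in D8 and 470 in ND with log2 -0.69 (0.16) in the authors' deposited table. Dnajb1 and Hspa1b, of the same list, had -0.61 and -0.66 in that table. The co-chaperone Bag3 rose (1.00). The cold-inducible RNA-binding genes Cirbp and Rbm3, in no list and picked after their values were seen, had 0.61 (0.16) and 0.67 (0.17) in the authors' deposited table. Antioxidant genes under NRF2 had 2 of 27 higher (7.41%), among them the cystine transporter Slc7a11 (2.41), and 0 lower. Apolipoprotein and cholesterol efflux genes had 3 of 19 higher (15.8%) and 0 lower. Cell cycle genes had Cdkn1a higher of 30 (3.33%), and of 37 histone genes (2.7% called) H2ac19 was lower (-5.97) in the authors' deposited table. Both shares are near the 2.91% of all tested genes.

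Of the 509 called genes 302 belonged to no list, 240 higher and 62 lower. Among them the itaconate enzyme Acod1 (log2 6.13), the cytokine subunit Il12b (5.98), the interleukin 1 antagonist Il1rn (3.84), Chil1 (3.36, with 60.6 in D8 and at most 6.83 in ND), Tnfaip6 (2.95), Birc3 (3.49) and the checkpoint ligand Cd274 (1.36) belong to inflammation too in the authors' deposited table. Others have no such role that is well known. Pdzph1 had log2 1.26, Camk1d 1.00, Taf4b 0.99, Sntg2 0.80 and Hpcal1 0.52, all among genes higher in D8, in the authors' deposited table. The photoreceptor dopamine receptor Drd4, whose level follows the light and dark cycle in rodent retina, was lower, with at most 74.8 in D8 and 96.8 in ND and log2 -1.03 (0.19) in that table. Fabp12 (log2 -0.78), Pde8b (-0.66), Stc1 (-0.94) and the serine synthesis enzyme Phgdh (-1.42) were lower as well in the authors' deposited table. Of the genes in this paragraph those not in the set taken by size, level or p were picked after their values were seen.

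Lens genes gave many of the largest decreases. All 8 tested alpha and beta crystallins, the structural proteins of lens fibres, were lower in D8, with a median log2 of -5.12. Cryaa averaged at most 20.4 in D8 retina and 1484 in ND retina, log2 -6.22 (1.41), in the authors' deposited table. Of 24 gamma crystallin and lens fibre genes 8 were lower and 0 higher, median -1.96. The lens factor Foxe3 averaged at most 0.00682 in D8 and 3.74 in ND with log2 -8.42 (1.87), and the water channel Mip at most 0.167 in D8 and 31.6 in ND with -7.59 (1.52), in that table. Summed over the alpha and beta crystallins, group means came to at most 100.1 in D8 and 3690 in ND. Wnt7b (-6.42), Pitx3 (-6.36), Sfrp1 (-2.72) and Nid1 (-3.20), in no lens list and picked after their values were seen, were lower too in the authors' deposited table.

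None of the 8 alpha and beta crystallins was called at 6 or 10 weeks. Against the same ND retinas, Cryaa had log2 0.51 at 6 weeks and -1.23 at 10 weeks, and Mip 0.88 and -0.93, none past the threshold, in the authors' deposited tables. The depleted D8 retinas were lower still than D8, with Cryaa at log2 -2.93, in the authors' deposited table. In the ND repopulated retinas Cryaa had 0.31 and did not pass. Of the 24 gamma crystallin and lens fibre genes 12 were higher and 1 lower at 6 weeks, against 14.1% and 9.31% of all genes tested there. Of the same 24, 6 were higher and 0 lower in the ND repopulated retinas, against 0.0844% and 0.0714%. The lens is no part of the retina, and the amount of lens RNA in single retinas was not analysed here, since the tables give groups.

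Hemoglobin genes were lower in 4 of 10 tested cases, median log2 -1.82. Hbb-bs averaged at most 13.5 in D8 and 34.8 in ND with log2 -3.64 (0.77), and Hba-a1 had -3.59 (0.80), in the authors' deposited table. The alpha globin genes Hba-a1 and Hba-a2, and the beta globin genes Hbb-bs and Hbb-bt, are near-identical pairs and their separate values are uncertain. Hbb-bs had -2.03 at 6 weeks and -3.45 at 10 weeks, both called lower, and was higher in the depleted than in the D8 retinas, at log2 2.22, in the authors' deposited tables. Of 25 genes of pigment epithelium and visual cycle 0 were lower and Stra6, a retinol importer, was higher (1.21), at a median of -0.29, with the pigment genes Tyrp1 at -1.24 and Pmel at -1.13 not past the threshold in the authors' deposited table. Markers of surface epithelium (0 of 21 called, median 0.86), optic nerve oligodendrocytes (0 of 12) and muscle (0 of 19) did not pass. Of 15 genes of ciliary body and iris Aqp1 was lower. Of all tested genes 2.91% were called, so 0 calls in lists of this size is near that share. The share was 4% for pigment epithelium and visual cycle and 6.67% for ciliary body and iris. The part of lens, blood or other tissue in the values of retinal genes was not tested.

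**Figure D4:**
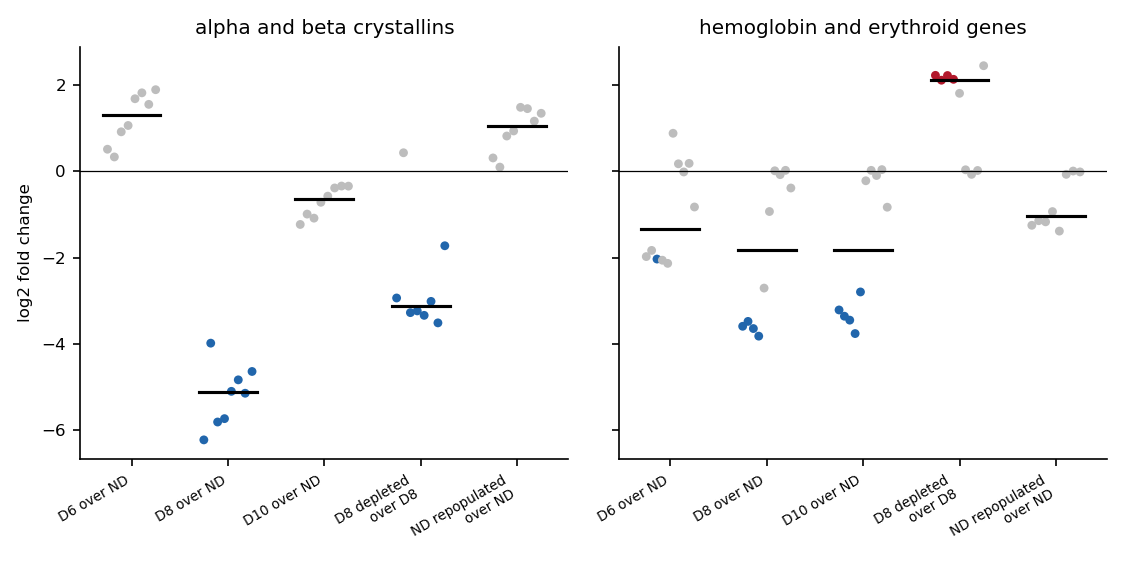
Log2 fold changes of the alpha and beta crystallins (left) and the hemoglobin and erythroid genes (right) in 5 comparisons, with called genes in red (higher) or blue (lower), others in grey, and the median as a bar. Crystallin medians were 1.31, -5.12 and -0.65 in D6, D8 and D10 over ND, -3.12 in depleted D8 over D8 and 1.05 in ND repopulated over ND.

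Diabetic retinas of 6 weeks (5 retinas, no PBS in the label) and of 10 weeks (5 retinas, PBS in the label) were compared by the authors with the same 6 ND retinas. At 6 weeks 23.4% of tested genes passed (14.1% higher, 9.31% lower) and at 10 weeks 7% (5.59% higher, 1.41% lower), against 2.91% at 8 weeks. Because the ND retinas are shared, values stand side by side and agreement between times is not a result. Lcn2 had log2 6.30, 5.51 and 7.08 at 6, 8 and 10 weeks, Gfap 1.70, 1.10 and 1.96, Mt2 4.54, 3.36 and 4.36, and B2m 1.57, 1.32 and 2.15, in the authors' deposited tables. The median of the gliosis list was 1.36, 0.95 and 1.53, and that of the antiviral list 1.48, 1.48 and 2.40. Antiviral genes called higher numbered 30, 25 and 36 of 38, and gliosis genes 26, 20 and 27 of 44. Txnip passed at 6 and 10 weeks (log2 1.80 and 0.93) but not at 8 weeks (0.43), P2ry12 had -1.08, -0.34 and -1.80, and Arr3 passed at 8 weeks (0.88) and not at 6 or 10 (0.37 and 0.27), in the authors' deposited tables. The heat shock list had 22 of 37 genes lower at 6 weeks, 3 at 8 and 4 at 10.

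A test of the difference between the effects, with the implied variances added, called 4 of 17495 genes between 8 and 6 weeks and 0 of 17317 between 8 and 10 weeks. At an unadjusted p under 0.05 there were 1317 and 219. Added variances overstate the error, because the ND retinas enter both effects. With the variance of the ND retinas taken off, as group sizes imply, 654 genes differed between 8 and 6 weeks, 124 higher and 530 lower at 8 weeks. Between 8 and 10 weeks 3 genes differed in this way. They were A2m (8 minus 10 weeks -1.66, adjusted p of 0.000499), Gpnmb (-1.52, 0.0117) and H2ac19 (-6.34, 0.0336). Among 20 genes followed over the times, 6 differed between 8 and 6 weeks in this way and not with added variances. They were Txnip (8 minus 6 weeks -1.37, adjusted p of 0.00175), Hspa1b (0.67, 0.0409), Fgfr3 (-3.24, 0.0239) and the lens genes Cryaa (-6.74, 0.00157), Mip (-8.47, 0.000173) and Foxe3 (-7.04, 0.00826). Lcn2, Gfap, Mt2, B2m, P2ry12, Arr3, Cxcl10, Cfb, Gbp2, Irf7, Nr4a1, Nr4a3, Sik2 and Gnat1 passed under neither error between 8 and 6 weeks, and none of the 20 passed between 8 and 10 weeks. For these a difference between times is not shown, which does not show that the effects were equal.

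**Figure D5:**
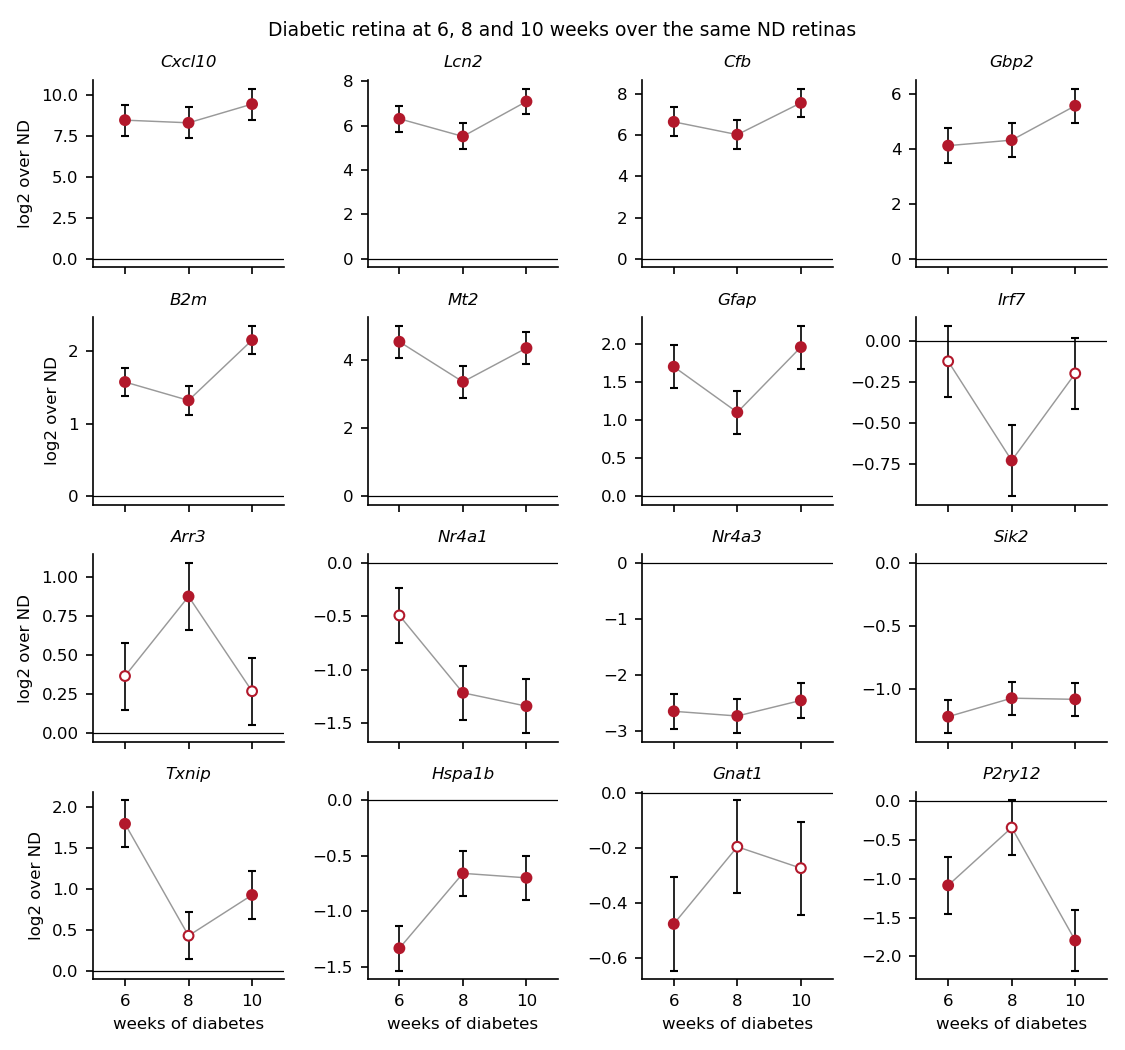
Log2 fold change over the same ND retinas at 6, 8 and 10 weeks of diabetes for 16 genes, with bars of 1 implied standard error; filled points passed an adjusted p of 0.05 in their own comparison and open points did not. Lcn2 lies at 6.30, 5.51 and 7.08, and Sik2 at -1.22, -1.07 and -1.08.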

How the data were processed

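Per the labels' protocols, RNA from wild-type mouse retinas was made into directional poly-A libraries and read on a NovaSeq instrument as 100-base read pairs. The submitters' processing notes name bcl2fastq and GRCm39. No source used here gives the aligner, the counter, the scaling between libraries or the test. For each comparison the authors deposited a log2 fold change, a signed linear fold used as a score, p-values with FDR p-values, and the larger group mean, a signal of unstated scale. No counts per retina were used, so depth is unknown here and no model was refitted.

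The deposited tables of D8, D6 and D10 over ND, depleted over D8 and ND repopulated over ND were joined by gene. Those of depleted D8 and of repopulated 10 week diabetic retinas over ND were joined too, for the bounds on group means. Of 25655 genes, 6642 had no p, 1518 had a p without an adjusted p and 17495 were tested. Standard errors were the absolute log2 over the normal quantile that matches its p. Group means were bounded through tables that share a group. Differences between times were tested with a normal test and Benjamini-Hochberg adjustment, and the code was checked on simulated data. Python 3.11.15, numpy 2.4.6, pandas 2.3.3, scipy 1.17.1 and matplotlib 3.10.9 were used. Promoters were matched by symbol to the RefSeq table of GRCm38.p6.

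Genes and lists were chosen with earlier results of these data known. Genes named by rule were called, at or above the 40th percentile of level and not predicted: the 15 largest rises and falls, the 10 smallest p in each direction and the 10 highest means. Up to 5 members of each list with the smallest p and 8 fixed markers were added. Other list members, and genes in no list, were picked after their values were seen. Some genes are not reported here.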

Additional observations from a re-analysis of the deposited data

Results flagged for a closer look

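The log2 value over ND differed between D8 and the 6 week diabetic retinas in 4 genes. The test was one of the difference, with variances added and Benjamini-Hochberg adjustment over 17495 genes. The difference, 8 weeks minus 6 weeks, was -7.43 (log2) for the predicted gene Gm20521, with effects of -3.12 at 8 weeks and 4.31 at 6 weeks. It was -6.29 for H1f8, an oocyte linker histone, with -0.24 at 8 weeks and 6.05 at 6 weeks. It was -3.63 for Wfikkn1, a secreted protease inhibitor, with 0.09 at 8 weeks and 3.72 at 6 weeks, and -0.905 for Mtmr10, with 0.01 at 8 weeks and 0.92 at 6 weeks. At 10 weeks the effects, from the authors' deposited table, were -0.52 for Gm20521, -0.02 for H1f8, -0.11 for Wfikkn1 and 0.19 for Mtmr10. None of the 4 was called at 8 weeks, where adjusted p was 0.342 or more in that table, and each was called at 6 weeks. The larger of the D8 and ND means was low for Gm20521 (0.0638), Wfikkn1 (0.279) and H1f8 (0.398), and 4.52 for Mtmr10. The label of D8 names PBS and that of the 6 week retinas does not, so time and PBS cannot be told apart. The cause was not tested.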

How the results depend on the processing

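The count of 509 called genes became 310 at a threshold of 0.01, 338 with an absolute log2 of at least 1 and 282 with the lowest 40% of level left out. The 407 higher genes became 255 at 0.01 and 207 without the low levels. The 102 lower genes became 55 at 0.01, 161 at a threshold of 0.1 and 53 with an absolute log2 of at least 1. The 4 genes that differed between 8 and 6 weeks became 654 with the shared ND variance taken off and 0 without the low levels, and the 0 between 8 and 10 weeks became 3 with the shared variance taken off. These changes follow from the rules themselves. Of the 254 genes taken by the rule, 133 were past the threshold. Under the alternatives run 61 values fell short of the threshold and 19 passed it anew. Reversed direction was counted only for the 133, with 0 found. Only recentring at the median of all tested genes and removing a trend on level change a log2 value. The other alternatives leave its sign fixed, so this 0 says little. Genes named outside the rule, such as Csf3, Il6, Tnf, Irf7 and Cirbp, were not rerun. Of the counts over gene lists, 823 stayed within 1.5 times and 79 did not. Counting the GTPases without the 3 p200 genes was chosen after seeing the data. No paired analysis was possible because the tables hold no values per retina, and for the same reason no retina could be left out and no other normalization tried. Depth per retina is unknown, and the larger errors of low genes limit what could be called there.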
